A study of Mus musculus with 21 samples.

Results

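Mouse CD4 T cells that carried an active Il23r reporter were compared between 2 cytokine cultures. The comparison used 6 of the 21 bulk RNA libraries of the series, 3 sorted as GFPpos from the culture with IL-12 and IL-21 (20 ng/ml each) and 3 sorted as GFPpos from the culture with IL-1b (20 ng/ml), IL-6 (25 ng/ml) and IL-23 (20 ng/ml). All 6 were kept. Tests ran on genes that reached 1 TPM in 3 or more of these libraries, which left 8829 of the 23415 genes in the table.

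The mice were heterozygous for a knock-in of IRES-eGFP at the Il23r locus. Per the labels this allele makes no functional IL-23 receptor, so all cells of both groups carried 1 such allele. Sorted naive CD4 T cells (CD44low CD25-) from spleen and lymph nodes were activated with plate-bound antibodies to CD3 and CD28 and cultured for 5 days, and then sorted on eGFP. SMART-Seq2 libraries of full-length cDNA were made from them. The labels do not say whether replicates came from separate mice or cultures, and p-values here therefore reflect only how much these libraries vary, which may be technical variation. The cultures also differ in every cytokine, so the parts of single cytokines cannot be told apart.

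CD4 T cells take on effector programs that depend on the cytokines they meet. IL-12 signals through STAT4 and favours Th1 cells, in which the transcription factor T-bet (Tbx21) drives interferon gamma. IL-6, IL-1b and IL-23 favour Th17 cells, which make the IL-17 cytokines, and IL-23 acts on cells that have gained the receptor encoded by Il23r. IL-21 signals through STAT3 as IL-6 does. The reporter marks cells that transcribe Il23r, so the comparison asks how cells with that locus active differ when they arise in a Th1-favouring and in a Th17-favouring culture.

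The sorting marker itself lay at overlapping levels in both groups. Values are given throughout for replicates 1, 2 and 3 in that order, in TPM, a share of each library's transcripts. Il23r was at 31.8, 24.2 and 36.4 TPM with IL-12+IL-21 and at 21.7, 24.9 and 38.9 TPM with IL-1b+IL-6+IL-23. The difference on the log2(TPM + 1) scale was 0.13 ± 0.26 (SE; 95% interval -0.42 to 0.68). The row for the reporter, EGFP_IRES_IL23R, was at 27.0, 23.3 and 35.0 TPM against 21.2, 17.4 and 32.3 TPM, and may share reads with Il23r. As the sort gates on this locus, its level may be set by the gate and is no finding.

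All 9 CD4 T cell identity markers, among them Cd4, Cd3e and Lck, were at 1 TPM or more in each of the 6 libraries. Most defining genes of other cells were at or near 0. Pax5 (B cells), Lyz2, Adgre1, Fcer1g and Tyrobp (myeloid cells) and Ncr1 and Klrb1c (natural killer cells) were listed at 0 in all 6, and Cd8a in 5 of 6, with 0.1 TPM in the other, while Cd8b1 was at 4.89 to 12.4 TPM. The summed level of the 9 CD4 T cell markers was 3397 to 3898 TPM with IL-12+IL-21 and 2117 to 2706 TPM under IL-1b+IL-6+IL-23, and Cd3d, Cd3g and Trbc1 were called higher (none of the 9 with median-ratio scaling). The summed level of 11 myeloid and dendritic cell markers was 281 to 642 TPM against 158 to 166 TPM. Most of it was Cd74, the class II invariant chain, at 430, 256 and 625 TPM against 141, 144 and 140 TPM (1.52 ± 0.25), and its part in the results was not tested. H2-Ab1, a class II chain of the same list, was at 16.5 to 23.2 TPM in the 6 libraries. Summed B cell markers were at 3.74 to 7.1 TPM, and erythroid and neutrophil markers at 5.91 to 15.5 TPM. Summed natural killer markers reached at most 2.58 TPM and summed gamma-delta and innate-like T cell markers at most 0.53 TPM in any of the 6 libraries. In bulk samples, fewer cells of a type and less RNA per cell cannot be told apart.

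Libraries of a group resembled each other more than those of the other group. Correlations of log2(TPM + 1) were 0.967 to 0.973 within groups and 0.948 to 0.957 between them. Between 11240 and 12610 genes were above 0, and 34.5% to 41.6% of TPM lay in ribosomal protein genes, with overlap of the groups in both measures.

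Across the transcriptome the larger share of differences was toward IL-12+IL-21. By limma, 473 of 8829 genes had an adjusted p under 0.05, the threshold for a call used here, which is 5.36% of the genes tested. Of these 337 (3.82%) were higher with IL-12+IL-21 and 136 (1.54%) were lower, and 284 and 115 of them by at least 1 on the log2 scale (399 together, 4.52%). The balance depends on scaling: the median of all genes was 0.16 without scaling and -0.01 after median-ratio scaling, under which 524 genes (5.93%) were called, 291 (3.3%) higher and 233 (2.64%) lower. With that scaling list medians lay about as much lower, and 5 changed sign, those of cytokine genes (-0.17), lineage transcription factors (-0.04), the TGF-beta response (-0.07), early response genes (-0.02) and cholesterol and fatty acid synthesis (-0.12). None of the 473 calls changed sign with that scaling. In 1824 genes (20.7%) the 3 libraries of one group did not overlap the 3 of the other, 1450 (16.4%) with IL-12+IL-21 above and 374 (4.24%) with it below. Without IL-12+IL-21 replicate 1 there were 314 calls, of which 210 were higher. Without IL-12+IL-21 replicate 3 there were 202 higher, and without IL-1b+IL-6+IL-23 replicate 2 there were 88 lower.

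**Figure D1:**
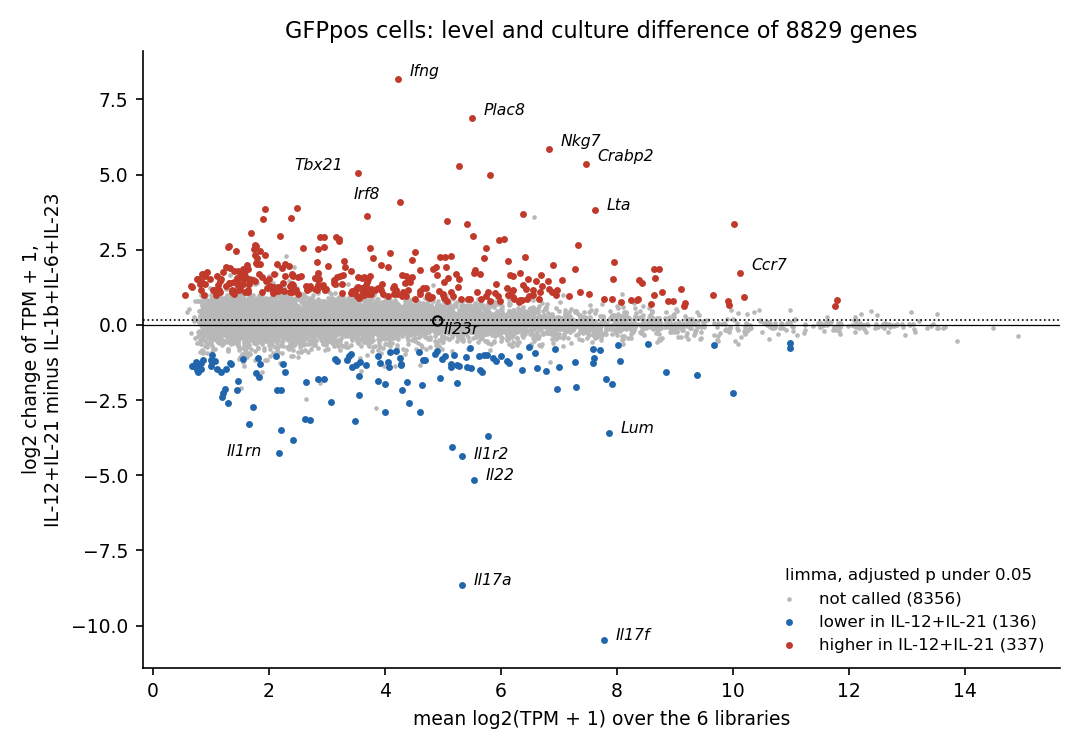
Mean log2(TPM + 1) over the 6 libraries (x axis) against the log2 change of TPM + 1, IL-12+IL-21 minus IL-1b+IL-6+IL-23 (y axis), for the 8829 genes tested. Red points are the 337 genes higher with IL-12+IL-21, blue the 136 lower and grey the rest, the dotted line is the median of all genes (0.16), and the open circle is Il23r at 0.13. The ends of the range are Ifng at 8.18 and Il17f at -10.47.

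Cytokine genes divided sharply between the cultures. Of 28 listed, 19 were tested, and 6 were higher with IL-12+IL-21 and 6 lower, with a median of 0.02 against 0.16 over all genes. Ifng, which encodes interferon gamma, was at 450, 234 and 300 TPM with IL-12+IL-21 and at 0, 0.3 and 0 TPM with IL-1b+IL-6+IL-23. The groups lay far apart, and the log2 change was 8.18 ± 0.27 (adjusted p = 1.22e-10). Lta, the gene of lymphotoxin alpha, was at 738, 697 and 790 TPM against 48.8, 39.7 and 68.9 TPM (3.83 ± 0.20). Tnf and Ltb, its neighbours within 1.16 and 6.85 kb on chromosome 17, were higher by 1.52 ± 0.26 and 1.42 ± 0.22. All 3 genes of this cluster of tumour necrosis factor family ligands were thus higher in the same cells. Il3, a growth factor for myeloid progenitors, was at 15.8, 15.4 and 28.6 TPM against 1.2, 0.94 and 3.46 TPM (2.91 ± 0.35). Csf1, the macrophage growth factor, was at 3.13, 3.0 and 9.88 TPM against 1.43, 0.61 and 1.2 TPM (1.46 ± 0.37, adjusted p = 0.0311). Its highest value came from 1 library, and the call was lost without IL-12+IL-21 replicate 3 and without IL-1b+IL-6+IL-23 replicate 2 (adjusted p up to 0.0888).

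In the opposite direction stood the IL-17 cytokines. Il17f was at 6082, 9475 and 9681 TPM with IL-1b+IL-6+IL-23, where its mean ranked 18 among all genes and made up 0.841% of TPM, and at 5.44, 3.24 and 6.19 TPM with IL-12+IL-21. It had the largest difference of any gene tested, -10.47 ± 0.23 (adjusted p = 8.31e-13). Il17a, 42.65 kb away on chromosome 1, was at 615, 697 and 1199 TPM against 0.46, 0.54 and 2.47 TPM (-8.66 ± 0.33). Both genes were at most at a few TPM in every IL-12+IL-21 library. Il22, whose product acts on epithelial cells, was at 299, 281 and 251 TPM under IL-1b+IL-6+IL-23 and at 6.5, 17.3 and 2.45 TPM with IL-12+IL-21 (-5.15 ± 0.42). Iltifb, a near copy of Il22 that may share its reads, was at 20.5, 9.77 and 14.6 TPM against 0, 1.09 and 0.24 TPM. Il22 and Ifng lie 231 kb apart on chromosome 10 and differed in opposite directions.

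Il24, Il1rn and Il2 were lower with IL-12+IL-21 as well. Il24, a member of the IL-10 family, was at 57.1, 58.1 and 59.7 TPM against 206, 280 and 308 TPM (-2.14 ± 0.19), narrow within IL-12+IL-21 and wider in the other group. Il1rn, the secreted antagonist of the IL-1 receptor, was at 0, 0 and 0.11 TPM against 16.8, 14.2 and 27.2 TPM (-4.25 ± 0.29). Il2, the T cell growth factor, was at 51.0, 36.2 and 107 TPM against 214, 120 and 163 TPM (-1.45 ± 0.32, adjusted p = 0.0137, and 0.0775 without IL-12+IL-21 replicate 2). The 3 lowest Il2 values were those of IL-12+IL-21, but the highest of them came close to the lowest of the other group. Il21 was made in both cultures, at 70.5, 47.3 and 68.1 TPM with IL-12+IL-21 and at 36.9, 29.6 and 89.8 TPM under IL-1b+IL-6+IL-23, and the groups overlapped (0.39 ± 0.33, 95% interval -0.32 to 1.10). Csf2, Il4, Il5 and Il1b were listed at 0 in all 6 libraries. Il10 was at 0, 1.43 and 0.89 TPM against 0, 0 and 0.29 TPM and was not tested.

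**Figure D2:**
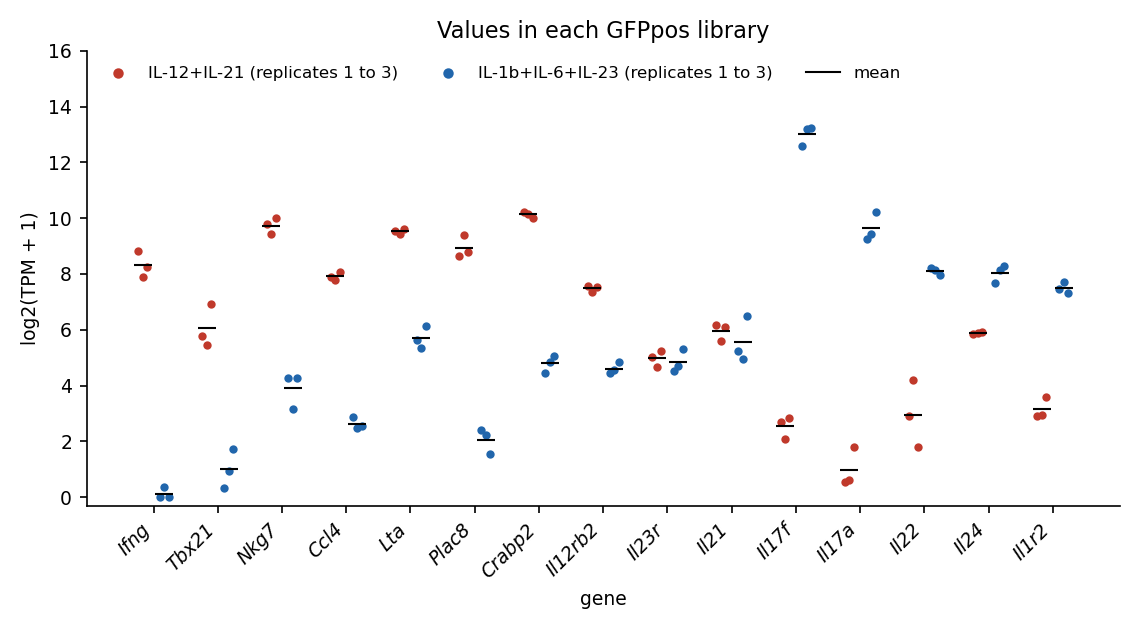
Values of 15 genes in each GFPpos library as log2(TPM + 1), with IL-12+IL-21 in red, IL-1b+IL-6+IL-23 in blue, 1 point per replicate and a line at the mean. For 13 genes the 2 groups do not overlap, and for Il23r and Il21 they do. Ifng is at 234 TPM or more against 0.3 or less, and Il17f at 6.19 TPM or less against 6082 or more. Most of the 15 were picked for large changes without overlap, and over all genes tested 20.7% did not overlap.

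The windows upstream of 4 genes, the 2 with the largest change in each direction among the cytokine and Th1 lists, are shown because the cultures are furthest apart there. They are the 250 bases before the RefSeq transcript start in GRCm38.p6, read 5′ to 3′ along the gene. Capitals mark every match, on either strand, to AGGTCA (the core bound by ROR factors), GGTGTGA (the core bound by T-box factors), TTCNNNGAA (the palindrome bound by STAT factors) and TGANTCA (bound by AP-1). No marked matches overlap in the 4 windows. Ifng (chr10:118440796-118441045, plus strand) has 1 STAT match and no T-box match, and Nkg7 (chr7:43436888-43437137, plus strand) has 1 STAT and 1 T-box match. Il17a (chr1:20730655-20730904, plus strand) has 1 ROR and 1 AP-1 match, and Il17f (chr1:20784271-20784520, minus strand) has 1 ROR match. The Il17f window lies inside the span that GENCODE M21 gives the gene. The end of the Nkg7 window, with its T-box match, also lies inside the Nkg7 span, which starts at 43437073.
Ifng: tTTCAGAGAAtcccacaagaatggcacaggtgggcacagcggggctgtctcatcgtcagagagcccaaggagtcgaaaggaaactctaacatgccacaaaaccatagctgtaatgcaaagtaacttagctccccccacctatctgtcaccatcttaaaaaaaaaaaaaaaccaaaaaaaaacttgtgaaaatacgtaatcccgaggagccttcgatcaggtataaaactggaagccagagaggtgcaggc
Nkg7: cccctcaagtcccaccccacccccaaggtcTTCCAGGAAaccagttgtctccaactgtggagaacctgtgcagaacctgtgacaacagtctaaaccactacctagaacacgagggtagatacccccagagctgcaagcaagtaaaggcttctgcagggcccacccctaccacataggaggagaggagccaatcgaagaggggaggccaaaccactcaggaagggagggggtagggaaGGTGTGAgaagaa
Il17a: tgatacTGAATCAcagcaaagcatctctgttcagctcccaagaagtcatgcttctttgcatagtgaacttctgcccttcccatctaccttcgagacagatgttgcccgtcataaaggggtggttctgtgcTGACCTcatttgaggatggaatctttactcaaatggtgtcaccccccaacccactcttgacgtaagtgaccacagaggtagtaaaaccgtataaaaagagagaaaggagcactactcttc
Il17f: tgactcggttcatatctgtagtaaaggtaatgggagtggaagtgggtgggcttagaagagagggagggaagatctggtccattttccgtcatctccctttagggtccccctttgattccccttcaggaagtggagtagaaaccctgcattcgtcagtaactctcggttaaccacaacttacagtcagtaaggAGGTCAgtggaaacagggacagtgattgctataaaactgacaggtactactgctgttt
Matches to these short motifs were also found across the windows of all genes tested. The ROR core stood in 10.7% of the 6941 windows found for tested genes, in 12.8% of 226 windows of higher genes and in 15.7% of 102 windows of lower genes. The T-box core stood in 2.68%, 3.1% and 4.9% of the same windows, the STAT palindrome in 6.22%, 12.4% and 8.82%, and the AP-1 site in 4.01%, 9.73% and 6.86%. A match is a description of the sequence, and binding was not measured.

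The transcription factors that define the lineages followed the cytokines. Of 32 listed, 21 were tested, with 5 higher and 6 lower with IL-12+IL-21 (median 0.12). Tbx21, which encodes T-bet, was at 54.0, 42.8 and 121 TPM with IL-12+IL-21 and at 0.26, 0.91 and 2.33 TPM with IL-1b+IL-6+IL-23 (5.06 ± 0.40, adjusted p = 1.51e-06). Every IL-12+IL-21 library lay above every library of the other culture, with replicate 3 the highest. Irf8, an interferon regulatory factor best known from myeloid cells, was at 71.0, 52.0 and 126 TPM against 1.52, 6.34 and 4.39 TPM (4.08 ± 0.38). Irf1, which interferon gamma induces, was at 69.3, 66.7 and 95.4 TPM against 10.9, 13.4 and 22.6 TPM (2.28 ± 0.27). Irf4 (1.65 ± 0.23) and Batf3 (1.52 ± 0.21) were higher as well.

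Rora, a nuclear receptor that takes part in Th17 differentiation, was at 4.78, 4.54 and 7.45 TPM with IL-12+IL-21 and at 16.5, 20.9 and 23.4 TPM with IL-1b+IL-6+IL-23 (-1.71 ± 0.27). The groups did not overlap. Batf, an AP-1 family factor needed for Th17 cells, was lower by 1.97 on the log2 scale, at 122, 98.4 and 146 TPM against 474, 511 and 447 TPM. Its usual partner Irf4 thus differed the other way. Id2 and Id3, inhibitors of E proteins, had log2 changes of -1.79 ± 0.16 and -1.51 ± 0.19, and Tcf7, a factor of naive and memory cells, -1.40 ± 0.22. Gata3 (0.14 ± 0.28), Maf (0.57 ± 0.33), Runx3 (0.53 ± 0.28) and Bhlhe40 (0.17 ± 0.21) were not called. Foxp3, Eomes, Bcl6 and Ahr were under 1 TPM in all 6 libraries and were not tested.

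These genes recur in the lineage lists. Of 17 tested Th1 program genes 11 were higher and 1, Il2, lower, with a median of 1.69. Stat4, the factor that IL-12 activates, was at 36.1, 19.7 and 34.9 TPM against 18.5, 13.1 and 15.8 TPM and missed the threshold (0.86 ± 0.27, adjusted p = 0.0882). Cxcr3 (-0.07 ± 0.25) and Ccl5 (-0.42 ± 0.25) of the same list were not called, and their groups overlapped. Of 15 tested Th17 program genes 9 were lower and 1, Irf4, higher, with a median of -1.97. Of 15 tested genes of the pathogenic Th17 signature 7 were higher, namely Ccl3, Ccl4, Tbx21, Il3, Gzmb, Lag3 and Icos, and 2 lower, Il22 and Cxcl3, with a median of 0.91. In the non-pathogenic signature 3 of 7 genes were tested and 1, Il1rn, was lower. The members of the pathogenic signature that were higher with IL-12+IL-21 include Tbx21, a defining Th1 gene, and Ccl3 and Ccl4, which stand in the Th1 list as well. None of the 4 tested Th2 genes passed limma's threshold, with 1 at an unadjusted p under 0.05, and 1 (Ccr4, lower) was called with median-ratio scaling. In the regulatory T cell list 9 genes were tested, of which Tnfrsf18 and Nrp1 were higher and Tigit and Lrrc32 lower, the last with its call lost in 4 of 6 fits without 1 library (without replicates 2 or 3 of either group, adjusted p up to 0.0846).

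**Figure D3:**
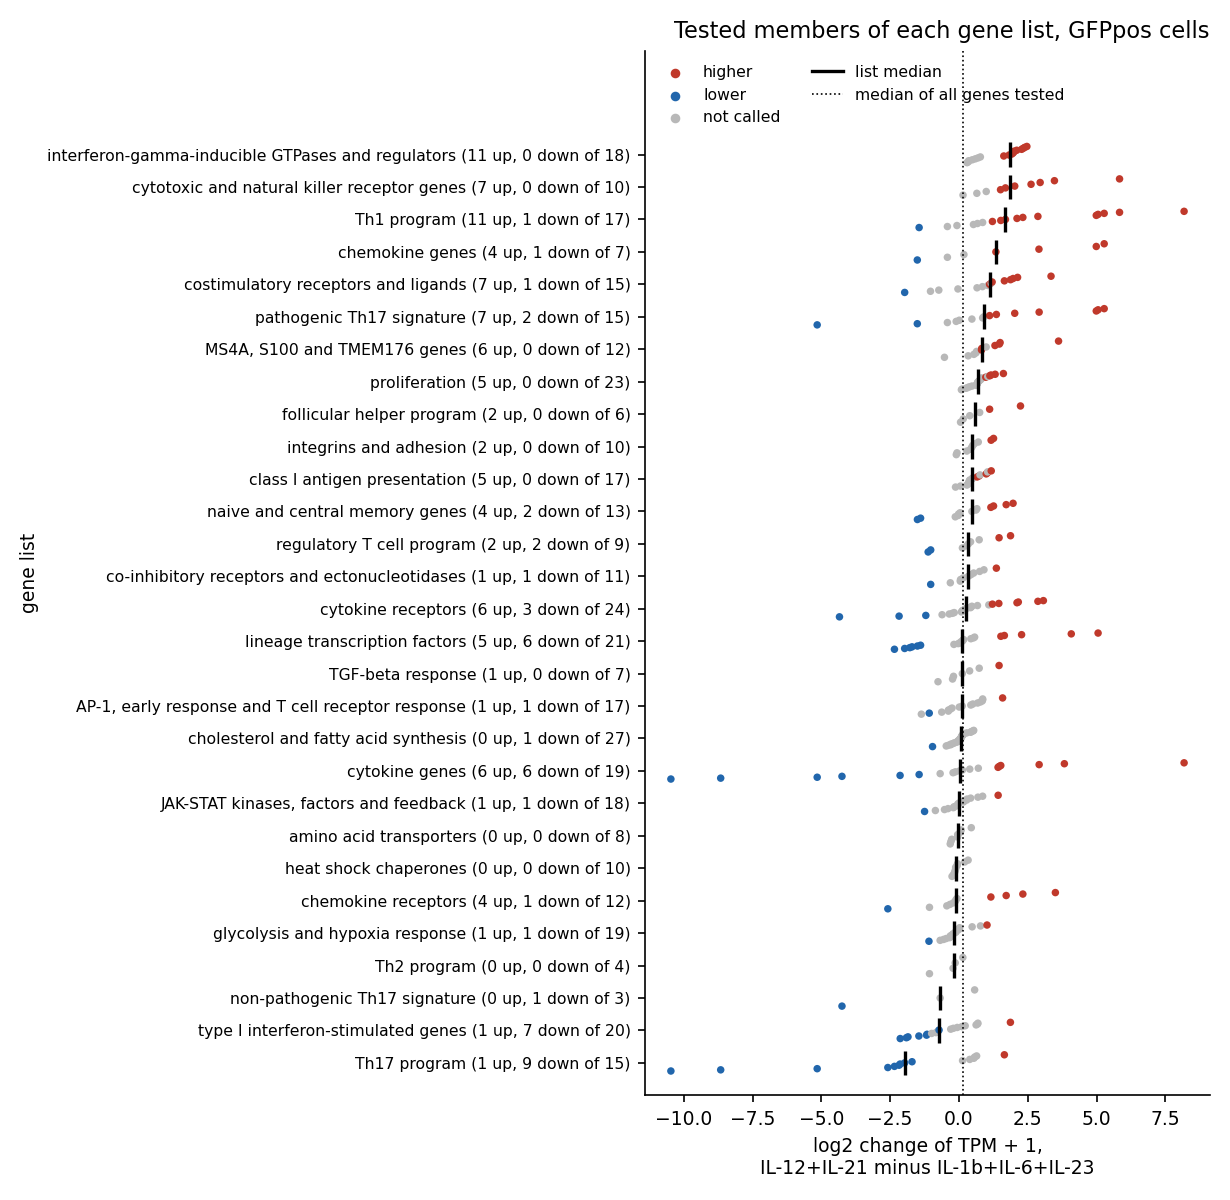
Log2 change of TPM + 1, IL-12+IL-21 minus IL-1b+IL-6+IL-23 (x axis), of every tested member of 29 gene lists (y axis), ordered by list median. Red points were called higher, blue lower and grey not called, bars are list medians, and the dotted line is the median of all genes tested (0.16). Medians run from 1.87 for interferon-gamma-inducible GTPases and regulators to -1.97 for the Th17 program, and some genes stand in several lists.

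The IL-12 receptor chains were higher with IL-12+IL-21 and the IL-1 receptors with IL-1b+IL-6+IL-23. Of 31 cytokine receptor genes 24 were tested, with 6 higher and 3 lower (median 0.25). Il12rb2, the inducible chain of the IL-12 receptor, was at 187, 162 and 185 TPM with IL-12+IL-21 and at 20.9, 22.3 and 27.7 TPM with IL-1b+IL-6+IL-23 (2.87 ± 0.20, adjusted p = 4.03e-07). Il12rb1, the chain that the IL-12 and IL-23 receptors share, was at 39.4, 31.4 and 42.6 TPM against 13.9, 15.1 and 18.0 TPM (1.22 ± 0.23). Il12rb2 and Il23r are neighbours 46.7 kb apart on the minus strand of chromosome 6. Il18r1, which senses IL-18 in Th1 cells, was higher by 2.11 ± 0.29, Il2rb, a chain of the IL-2 and IL-15 receptors, by 1.45 ± 0.22, and Il10ra, the IL-10 receptor, by 3.07 ± 0.27 from at most 0.31 TPM to 6.84 TPM or more.

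Of the IL-1 receptors, Il1r2, the decoy receptor that binds IL-1 without signalling, was at 176, 207 and 159 TPM there and at 6.59, 6.7 and 11.1 TPM with IL-12+IL-21 (-4.34 ± 0.24). Il1r1, the signalling receptor 99.8 kb away on chromosome 1, was at 5.65, 5.06 and 3.79 TPM against 0.19, 0.23 and 0.43 TPM (-2.18 ± 0.27). With Il1rn, both the decoy and the soluble antagonist of IL-1 were higher in the culture that contained IL-1b. The 2 chains of the interferon gamma receptor went opposite ways. Ifngr1 was at 45.6, 49.5 and 41.3 TPM with IL-12+IL-21 and at 6.23, 10.3 and 12.8 TPM under IL-1b+IL-6+IL-23 (2.16 ± 0.26), and Ifngr2 at 5.62, 4.15 and 5.06 TPM against 12.3, 13.5 and 12.1 TPM (-1.21 ± 0.25, adjusted p = 0.00873, and 0.059 without IL-1b+IL-6+IL-23 replicate 2). Il21r (0.22 ± 0.18), Il2ra (0.42 ± 0.20) and Il2rg (-0.17 ± 0.16) were not called. Il6ra was under 2 TPM and Il6st, the signalling chain for IL-6, under 1 TPM in all 6 libraries.

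Of 18 JAK and STAT genes and feedback regulators, all tested, 1 was higher and 1 lower (median -0.01). Over all genes tested 3.82% were called higher and 1.54% lower. Socs2, a feedback inhibitor, was at 27.7, 34.5 and 41.8 TPM against 13.2, 8.75 and 15.3 TPM (1.42 ± 0.26), and Stat5a was at 103, 79.2 and 120 TPM against 203, 256 and 257 TPM (-1.25 ± 0.20). Stat3 was at 54.7, 37.2 and 54.0 TPM against 52.5, 76.4 and 83.5 TPM. The groups overlapped, with a log2 change of -0.53 ± 0.24. With median-ratio scaling Stat3 was called lower as well (adjusted p = 0.041).

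Ccl3, Ccl4 and Cxcl10 were higher with IL-12+IL-21. Of 7 tested chemokine genes 4 were higher and 1 lower (median 1.34). Ccl4 was at 237, 217 and 270 TPM against 6.27, 4.64 and 4.87 TPM (5.28 ± 0.21), and Ccl3, 13.2 kb away on chromosome 11, at 344, 228 and 396 TPM against 11.6, 4.14 and 14.1 TPM (4.99 ± 0.34). Both attract immune cells to sites of inflammation. Cxcl10, an interferon-induced ligand of Cxcr3, was at 21.7, 16.7 and 35.4 TPM against 3.07, 1.02 and 3.21 TPM (2.91 ± 0.35). Ccl9 was higher by 1.34 ± 0.32 (adjusted p = 0.0231), a call lost with median-ratio scaling (0.0638) and in 3 of 6 fits without 1 library, those without IL-12+IL-21 replicate 2 or IL-1b+IL-6+IL-23 replicates 1 or 2 (up to 0.116). Cxcl3, a neutrophil chemokine, was listed at 0 in the 3 IL-12+IL-21 libraries and was at 1.92, 1.12 and 2.76 TPM in the others (adjusted p = 0.00336).

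Of 12 tested chemokine receptor genes 4 were higher and 1 lower (median -0.12), beside 3.82% and 1.54% of all genes tested. Ccr7, which guides cells into lymph nodes, was at 2217, 1618 and 2241 TPM with IL-12+IL-21 and at 510, 542 and 817 TPM with IL-1b+IL-6+IL-23 (1.72 ± 0.19). Ccr6, a receptor typical of Th17 cells, was at 6.8, 6.82 and 9.68 TPM against 46.9, 48.4 and 58.5 TPM (-2.58 ± 0.24). Cxcr1, a receptor for neutrophil chemokines, was at 9.59, 12.8 and 12.5 TPM against 0, 0 and 0.35 TPM (3.50 ± 0.28). Its relative Cxcr2 was abundant in both cultures, at 390, 294 and 199 TPM against 321, 276 and 324 TPM (-0.11 ± 0.22). S1pr1, which lets cells leave lymphoid tissue, was higher by 1.16 ± 0.25 (adjusted p = 0.01, and 0.0575 without IL-1b+IL-6+IL-23 replicate 2).

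Several genes shared with cytotoxic lymphocytes were higher with IL-12+IL-21. Of 22 listed, 10 were tested and 7 were higher, none lower (median 1.86). Nkg7, a granule membrane protein of natural killer and cytotoxic T cells, was at 874, 691 and 1019 TPM against 18.1, 7.97 and 18.3 TPM (5.84 ± 0.27). Serpinb9, an inhibitor of granzyme B, was at 123, 92.0 and 118 TPM against 7.06, 9.83 and 10.5 TPM (3.47 ± 0.23), and Serpinb6b was higher by 2.95 ± 0.22. Gzmb, granzyme B itself, was at 8.72, 7.58 and 10.3 TPM against 0.49, 2.0 and 2.12 TPM (2.03 ± 0.32). Ctsw (2.62 ± 0.37) and Fasl (1.69 ± 0.26), which encode a cathepsin of cytotoxic cells and the death ligand, were higher from low levels. Klrd1 was at 2.01, 1.19 and 2.51 TPM and listed at 0 in the other group (adjusted p = 0.00276). Prf1, Gzma, Gzmk and Klrg1 were under 1 TPM in all 6 libraries.

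Most called costimulatory genes were higher with IL-12+IL-21, as were 337 of the 473 calls over all genes. Of 15 such genes, all tested, 7 were higher and 1 lower (median 1.11). Cd40lg, by which helper T cells activate other immune cells, was at 146, 90.5 and 188 TPM against 11.3, 10.8 and 15.7 TPM (3.35 ± 0.27). Tnfrsf9, known as 4-1BB, was at 156, 137 and 138 TPM against 25.7, 26.2 and 48.6 TPM (2.13 ± 0.24). Tnfrsf18 and Tnfrsf4, which encode GITR and OX40 and lie 9.55 kb apart on chromosome 4, were higher by 1.87 ± 0.17 and 1.21 ± 0.15. Cd27 (1.97 ± 0.34), Cd28 (1.65 ± 0.27) and Icos (1.11 ± 0.20) were higher too. Tnfrsf8, the gene of CD30, went the other way, at 5.79, 4.42 and 13.5 TPM against 29.6, 35.5 and 27.9 TPM (-1.97 ± 0.32). With median-ratio scaling Tnfrsf1b and Tnfsf11 were called lower as well.

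Among co-inhibitory receptors 1 of 11 tested genes was higher and 1 lower (median 0.34), beside 3.82% and 1.54% of all genes tested. Lag3 was at 116, 87.7 and 83.7 TPM against 24.6, 47.3 and 41.2 TPM (1.36 ± 0.25). Tigit was at 8.74, 9.11 and 10.1 TPM against 14.5, 18.8 and 29.1 TPM (-1.03 ± 0.27, adjusted p = 0.0401), and it lost the call in 5 of 6 fits without 1 library, all but the one without IL-1b+IL-6+IL-23 replicate 1 (up to 0.221). Pdcd1 (0.75 ± 0.25), Ctla4 (0.34 ± 0.23) and Cd200 (0.06 ± 0.26) were not called. Sh2d1a, the adaptor SAP of the follicular helper list, was at 106, 114 and 118 TPM against 26.7, 16 and 28.6 TPM (2.24 ± 0.23).

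Genes that interferons induce did not differ as 1 group. Of 18 GTPases and regulators known to be induced by interferon gamma, all tested, 11 were higher with IL-12+IL-21 and none lower (median 1.87). Igtp was at 559, 456 and 510 TPM against 87.1, 122 and 153 TPM (2.10 ± 0.21), and Gbp2 at 242, 202 and 271 TPM against 51.9, 48.4 and 81.4 TPM (1.99 ± 0.22). Iigp1 (2.47 ± 0.30), Tgtp1 (2.39 ± 0.24), Gbp10 (2.33 ± 0.32) and Ifi47 (1.82 ± 0.24) were higher, as were Gbp4, Gbp6, Gbp8 and Tgtp2. These families hold close copies that may share reads, such as Tgtp1 with Tgtp2 and the Gbp genes. All 18 members had log2 changes above 0, as did 6073 of the 8829 genes tested. In 13 the groups did not overlap, with IL-12+IL-21 above, which held for 16.4% of all genes tested. Among the 7 that were not called, Irgm1 had a change of 0.59 ± 0.26 and Gbp9 one of 0.78.

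Genes known mainly as targets of type I interferon went the other way in part. Of 20 tested, 7 were lower with IL-12+IL-21 and 1 higher (median -0.74), and 9 were lower with median-ratio scaling. Irf7, the amplifier of the type I response, was at 11.7, 8.48 and 9.16 TPM against 31.3, 39.2 and 49.0 TPM (-1.91 ± 0.25, adjusted p = 0.000165). Rtp4 (-2.13 ± 0.27), Isg20 (-1.85 ± 0.35) and Rsad2 (-1.46 ± 0.30) were lower at levels of a few TPM. Isg15 (-0.72 ± 0.18), Ifit1 (-1.18 ± 0.29) and Ifit3 (-1.16 ± 0.27) were lower with adjusted p of 0.0298, 0.0263 and 0.0197. These 3 calls were not stable when 1 library was left out. They were lost in 4 of 6, 5 of 6 and 2 of 3 such fits, with adjusted p up to 0.165, 0.115 and 0.0639. Leaving out any of the 6 libraries ended at least 1 of them. Ifitm3, an antiviral membrane protein, was the exception, at 830, 828 and 749 TPM against 249, 155 and 269 TPM (1.87 ± 0.20). Bst2 and Xaf1 were abundant in both groups and overlapped.

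**Figure D4:**
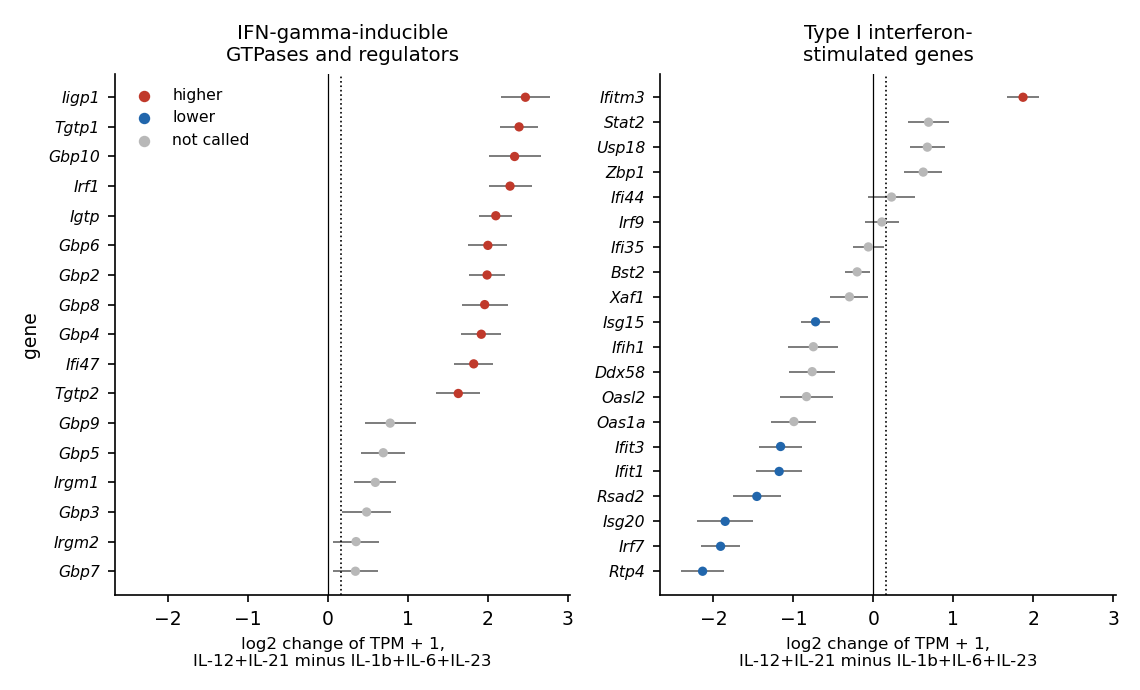
Log2 change of TPM + 1, IL-12+IL-21 minus IL-1b+IL-6+IL-23 (x axis), with SE bars for 17 of the 18 interferon-gamma-inducible genes (left) and 20 type I interferon-stimulated genes (right), 3 libraries per group. Red was called higher, blue lower and grey not called, and the dotted line is the median of all genes. On the left 11 genes lie at 1.63 or more and none below 0, and on the right 7 were called below 0 and Ifitm3 above.

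Antigen presentation by class I, which interferon gamma also induces, differed less. Of 17 genes, all tested, 5 were higher (median 0.48), and 3 of them, Nlrc5, Psmb9 and Tap2, with median-ratio scaling. Psmb9, an immunoproteasome subunit, was at 247, 270 and 262 TPM against 115, 114 and 154 TPM (1.03 ± 0.18). Nlrc5, the activator of class I genes, was higher by 1.17 ± 0.28 and the peptide transporter Tap2 by 0.99 ± 0.23. Psme2 was higher by 0.66 ± 0.14 and Psme1 by 0.73 ± 0.15. Without 1 library Nlrc5 lost the call in 4 of 6 fits, those without IL-12+IL-21 replicates 1 or 3 or IL-1b+IL-6+IL-23 replicates 2 or 3 (up to 0.137). Tap2 lost it without IL-12+IL-21 replicates 1 or 3 (up to 0.0782) and Psme2 without IL-12+IL-21 replicate 1 or IL-1b+IL-6+IL-23 replicate 2 (up to 0.0716). The class I heavy chain genes H2-K1 (0.37 ± 0.21) and H2-D1 (0.33 ± 0.23) were not called.

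All 23 proliferation genes tested had log2 changes above 0, with a median of 0.70, and 5 were called higher. Over all genes tested, 6073 of 8829 had changes above 0, with a median of 0.16. Pcna, the clamp of DNA replication, was at 125, 140 and 119 TPM against 39.7, 38.9 and 44.7 TPM (1.61 ± 0.19, adjusted p = 7.05e-05). The mitotic kinase Plk1 was higher by 1.31 ± 0.27, Ccnb1 by 1.16 ± 0.29, Cdk1 by 1.12 ± 0.25 and Rrm2, a subunit of ribonucleotide reductase, by 0.97 ± 0.21. Mki67 was at 1.34, 1.69 and 2.8 TPM against 0.72, 0.43 and 1.02 TPM and was not called (0.76 ± 0.28). Ccnb1 lost the call without IL-12+IL-21 replicates 1 or 3 or IL-1b+IL-6+IL-23 replicate 1 (adjusted p up to 0.132), Cdk1 without IL-12+IL-21 replicate 1 or IL-1b+IL-6+IL-23 replicates 2 or 3 (up to 0.0603), and Rrm2 without IL-1b+IL-6+IL-23 replicate 1 (0.061). With median-ratio scaling the median was 0.53 and 6 genes were called.

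Of 19 glycolysis and hypoxia genes, all tested, 1 was higher and 1 lower (median -0.17). Over all genes tested 5.36% were called, 3.82% higher and 1.54% lower. The few calls in the lists of this paragraph are therefore no result about the lists. With median-ratio scaling 1 was higher (Hk2) and 3 lower (Gpi1, Slc16a3 and Bnip3). Ldha and Gapdh, both abundant, overlapped between the groups. Bnip3, a mitophagy gene that hypoxia induces, was at 43.7, 34.5 and 38.3 TPM against 65.2, 89.0 and 100 TPM (-1.09 ± 0.22). Egln3, an oxygen-sensing enzyme, was higher by 1.02 ± 0.27 (adjusted p = 0.0389), a call lost with median-ratio scaling (0.0512) and held in only 1 of 6 fits, that without IL-1b+IL-6+IL-23 replicate 3 (up to 0.196). Of 27 cholesterol and fatty acid synthesis genes 1 was lower, Idi1 (-0.96 ± 0.24, adjusted p = 0.0288), a call held only without IL-12+IL-21 replicate 3 (up to 0.103 in the other 5 fits). None of 10 tested heat shock genes and 8 amino acid transporter genes passed limma's threshold, with 0 and 0 at an unadjusted p under 0.05. Of 17 early response genes Nr4a2 was higher (1.59 ± 0.34) and Nr4a1 lower (-1.08 ± 0.25, adjusted p = 0.0183). The Nr4a1 call was lost without IL-12+IL-21 replicates 2 or 3 or IL-1b+IL-6+IL-23 replicate 2 (up to 0.0869). Both are orphan nuclear receptors that T cell receptor signals induce.

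Several of the largest differences lay outside the T cell lists. Crabp2, which carries retinoic acid to its nuclear receptors, was at 1201, 1144 and 1038 TPM with IL-12+IL-21 and at 21, 27.9 and 32.6 TPM with IL-1b+IL-6+IL-23 (5.34 ± 0.19, adjusted p = 2.37e-10). Plac8, a small cysteine-rich protein found in many leukocytes, was at 395, 672 and 442 TPM against 4.28, 3.69 and 1.94 TPM (6.88 ± 0.27). No library of one culture came near those of the other for either gene. Both were named for large changes without overlap of the groups, so this separation is a description only. Calca, the gene of calcitonin and the neuropeptide CGRP, was at 26.3, 14.9 and 21.6 TPM against 2.02, 0 and 0 TPM (3.89 ± 0.40). Ctla2a, a cysteine protease inhibitor, was higher by 3.67 ± 0.20 and may share reads with its copy Ctla2b. Dclk1, a kinase known from neurons and tuft cells, was higher by 3.54 ± 0.30. Ms4a4b, a membrane protein of T cells, was at 46.4, 56.7 and 32.8 TPM against 3.0, 4.61 and 1.22 TPM (3.62 ± 0.33). In its list of MS4A, S100 and TMEM176 genes 6 of 12 were higher (median 0.82), and 3 with median-ratio scaling, Ms4a4b, Ms4a6b and Ms4a6c.

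On the other side, 2 genes of small extracellular matrix proteoglycans were higher with IL-1b+IL-6+IL-23. Lum, which encodes lumican, was at 637, 688 and 1157 TPM there and at 61.0, 46.5 and 100 TPM with IL-12+IL-21 (-3.58 ± 0.27). Dcn, which encodes decorin and lies 47.0 kb from Lum on chromosome 10, was at 16.6, 16.5 and 18.9 TPM against 0.55, 0.49 and 2.83 TPM (-3.15 ± 0.35). The groups did not overlap for either, which was a condition for naming these genes. Upp1, uridine phosphorylase, was at 156, 193 and 254 TPM against 19.7, 10.2 and 14.3 TPM (-3.70 ± 0.26). Ido1, the first enzyme of tryptophan breakdown, was at 16.6, 12.3 and 30.9 TPM against 0.34, 0.81 and 3.43 TPM (-3.15 ± 0.42). Timd2, a receptor of the TIM family, was at 66.9, 58.1 and 71.3 TPM against 5.37, 7.08 and 12.6 TPM (-2.90 ± 0.28). The splicing factor gene Mbnl3 (-2.90 ± 0.26), the secreted factor genes Crispld2 (-3.21 ± 0.27) and Tff1 (-3.82 ± 0.32), and Gad1, which makes the transmitter GABA (-2.71 ± 0.32), were lower with IL-12+IL-21 as well.

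The GFPneg cells of the same 2 cultures give values to set beside these differences. In GFPneg cells, with 2 libraries of IL-12+IL-21 and 3 of IL-1b+IL-6+IL-23, limma called 295 of 9255 genes (3.19%) between the cultures, against 459 (4.96%) for GFPpos cells in the same fit of 11 libraries. IL-12+IL-21 GFPneg replicate 3, with 1331 genes above 0, was left out. Of the 337 genes higher in GFPpos cells 317 had the same sign in GFPneg cells and 126 were called there, with medians of 1.36 and 0.90. Of the 136 lower genes 132 had the same sign and 74 were called, with medians of -1.38 and -1.30. As these genes were chosen for their GFPpos values, the larger GFPpos medians are a description only. The share of all genes tested with the same sign in both sorts was not computed. Of all genes tested, 6073 of 8829 had GFPpos changes above 0, so the same-sign counts are a description as well. Tested directly, the difference between the 2 culture effects was called by limma for 0 of 9255 genes (0.0%), with 469 at an unadjusted p under 0.05. This does not show that the effects were alike.

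The cytokine gene furthest apart in each direction differed the same way in GFPneg cells. Ifng had a mean of 181 TPM in IL-12+IL-21 GFPneg cells and 0.3 TPM in IL-1b+IL-6+IL-23 GFPneg cells, a log2 difference of 7.14. Il17f had means of 1.15 and 1999 TPM, a difference of -9.91. The culture difference of Tbx21 was 5.06 in GFPpos and 4.43 in GFPneg cells. Among genes called in GFPpos cells, Il17a had the smallest p of the direct test, with -8.66 in GFPpos and -5.96 in GFPneg cells, a difference of -2.70 ± 0.52 (adjusted p = 0.512). Il24 (-1.36 ± 0.28), Cxcr1 (2.11 ± 0.47) and Crabp2 (1.2 ± 0.28) came next among the genes named by the rule, all with the same adjusted p of 0.512. In all 4 the culture difference was further from 0 in GFPpos cells, but none passed the correction. They were named for their GFPpos values, so this direction is a description only. Among genes not called in GFPpos cells, some with the same adjusted p were further from 0 in GFPneg cells. These were Aunip (-0.14 in GFPpos, 1.81 in GFPneg), Ckmt1 (0.71, -1.20) and Ccz1 (0.36, -1.48), while Fam241b (0.97, -0.85) was not.

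**Figure D5:**
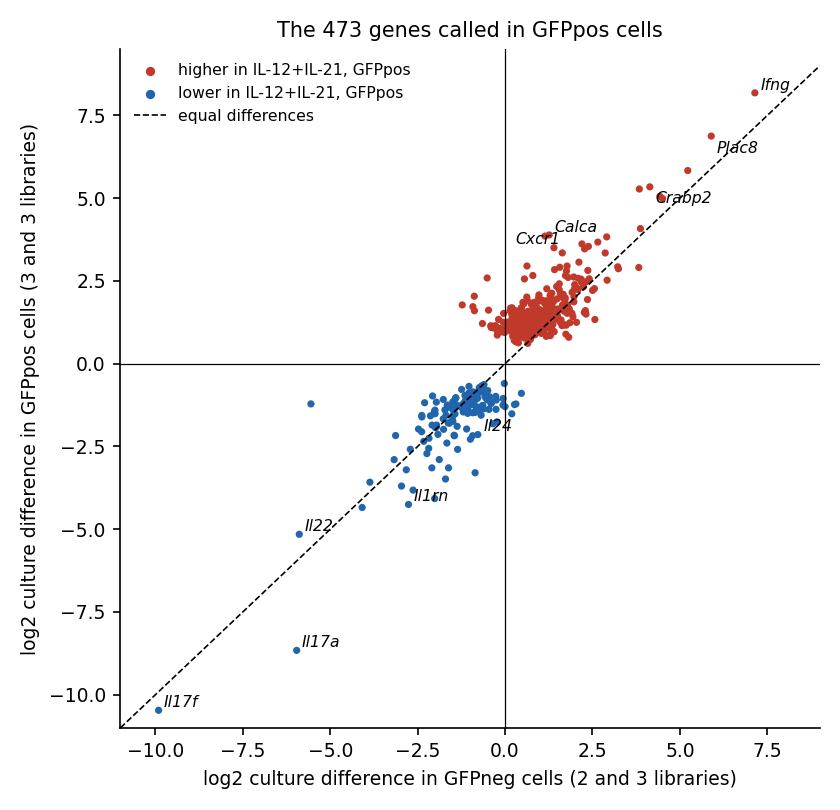
Log2 culture difference, IL-12+IL-21 minus IL-1b+IL-6+IL-23, in GFPneg cells (x axis) and GFPpos cells (y axis) for the 473 genes called in GFPpos cells, with red higher, blue lower and the dashed line at equal differences. Of the red points 317 of 337, and of the blue points 132 of 136, have the same sign in both sorts. The same share over all genes tested was not computed. Il17a lies below the line, at -5.96 and -8.66.

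A pair of rows of the table named TDTOMATO and ICRE, whose content the table does not describe, also differed. TDTOMATO was at 116, 139 and 188 TPM under IL-1b+IL-6+IL-23 and at 5.39, 5.36 and 14.9 TPM with IL-12+IL-21 (-4.07 ± 0.33). ICRE was at 6.01, 9.3 and 12.1 TPM and was listed at 0 in the 3 IL-12+IL-21 libraries. The groups did not overlap for either row.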

How the data were processed

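The authors deposited 1 table of TPM, each gene's length-normalized share of a library, with 23415 gene symbols. The tools RSEM 1.2.31, Bowtie2 2.2.9 and Trimmomatic 0.32 and the build GRCm38 are named per the submitters' processing notes. Settings, annotation and strand use are not given in the sources used here. TPM keeps no depth, so no counting interval could be given. A value of 0 can be a failed estimate and is described as listed at 0. Symbols matched GENCODE M21 for 22434 genes and RefSeq synonyms for 440, and 541 stayed unmatched.

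Differences were tested on log2(TPM + 1) by limma 3.58.1 (R 4.3.3), with an intensity trend and Benjamini-Hochberg adjustment over all genes tested; the scale understates changes of low genes. The method was tested on simulated data. Changes are group differences ± SE, n = 3 and 3. RefSeq windows of GRCm38.p6 were searched for motifs.

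Genes were named as the 15 largest called changes of at least 1 in each direction without group overlap and with a mean of 5 TPM or more in the higher group (predicted genes, receptor segments, tRNA and undescribed rows such as TDTOMATO and ICRE left out), up to 5 members of each list by p-value, and a panel; some of these are not reported here, and other list members are named where their list is described. The comparison, lists and rule were chosen with earlier results of these data known. Alternatives were pseudocounts 0.1 and 5, filters, 2 scalings, array weights, no trend, other library sets, the replicate block and leaving out each library.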

Additional observations from a re-analysis of the deposited data

How the results depend on the processing

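The 473 calls (337 higher, 136 lower) became 310 (217 higher) without the filter on low values, 1530 (1087 higher, 443 lower) with array weights and 32 (16 higher, 16 lower) with all 21 libraries, among which are libraries with few genes above 0; the cause was not tested. Quantile normalization called 245 lower genes and median-ratio scaling 233. Leaving out 1 library gave 314 to 437 calls, 202 to 341 higher and 88 to 172 lower, and 287 calls held in every such fit that tested the gene. Genes with values in 1 group only are not tested when a library of that group is left out. The 16 libraries without the 5 that stand apart gave 476 calls, 413 of them shared. Same-numbered libraries deviated with correlations of -0.03, -0.002 and 0.12, and those of different numbers with -0.12 to 0.12. Not every library correlated best with its own number. These values cannot tell whether the numbers pair samples, as each deviation is from a mean of only 3 libraries. With the replicate block there were 704 calls (516 higher), all 473 among them. The difference between GFPpos and GFPneg culture effects was called by limma for 0 genes, 1 with pseudocount 5, 2 with the replicate block and 0 to 1 with 1 library left out (1 without IL-1b+IL-6+IL-23 GFPneg replicate 1 or IL-12+IL-21 GFPpos replicate 3). None of the 97 called genes that the rule names changed sign under any alternative run, while Il23r and other uncalled ones did. Of the 97, 82 held their call in every fit with 1 library left out that tested them. With all 21 libraries 82 of the 97 lost it, among them Ifng (adjusted p = 0.0705), Tbx21 (0.0822), Plac8 (0.248) and Crabp2 (0.554), while Il17f (0.0131) and Il17a (0.00566) kept it. TPM gives no depth, so precision at low levels is unknown.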

Other observations

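Variable segments of the T cell receptor beta chain were looked at after their values were seen, and no test of the group was made. Of 20 tested Trbv segments 19 had log2 changes above 0, and limma called 9 higher with IL-12+IL-21 and 0 lower. Over all genes tested, 6073 of 8829 had changes above 0 and 3.82% were called higher. The median of the segments was 1.19, against 0.16 for all genes. With median-ratio scaling it was 0.99, and 8 segments were called higher. Trbv1 was at 80.7, 46.0 and 96.3 TPM with IL-12+IL-21 and at 23.2, 7.5 and 15.4 TPM under IL-1b+IL-6+IL-23, and Trbv19 at 44.1, 48.6 and 42.1 TPM against 12, 18.6 and 7.63 TPM. Trbv13-3 overlapped, at 26.5, 18.4 and 16.3 TPM against 17.5, 15.8 and 25.6 TPM. Segments share sequence, and reads may be split among them.

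Penk, the precursor gene of the enkephalin peptides, was chosen after its values were seen. It was at 3437, 2338 and 4460 TPM with IL-12+IL-21 and at 394, 231 and 370 TPM with IL-1b+IL-6+IL-23 (log2 change 3.35 ± 0.24), and in GFPneg cells its means were 2247 and 725 TPM.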
